A study of Mus musculus with 23 samples.

Results

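Extra-embryonic (ExE) tissue of mouse embryos that were homozygous for a trapped Tet1 allele (Tet1gt/gt) was compared with the same tissue of heterozygous embryos (Tet1gt/wt), to ask what removing the remaining intact allele adds to the loss of the first. The comparison used 7 of the 23 RNA libraries of the series, homozygous pools 1, 3 and 4 and heterozygous pools 1, 2, 3 and 5, all taken at E6.25, an embryonic stage soon after implantation. Of the 23725 lines of the count table, 12355 passed a filter on low counts and were tested. The 4 ExE libraries of wild-type (wt) embryos shared the model's estimate of spread and are given beside the results. The remaining 12 libraries come from the epiblast (E) of the same 3 genotypes.

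Every library is a pool of lysates from at least 6 embryos drawn from 2 to 3 litters, put together after the embryos had been genotyped. A pool therefore averages over embryos of mixed litters, and the p-values below measure the spread between pools. A homozygous ExE pool was lost according to the labels, which left 3. The pool number links the E and ExE material of most pools within a genotype and does not link pools of different genotypes. No strain, trap site or sex is given in the sources used here.

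TET1 is a dioxygenase that oxidises 5-methylcytosine in DNA, the first step of one route by which methylation is removed, and it is found mainly at CpG-rich promoters. It also binds chromatin together with co-repressors such as SIN3A and the polycomb complex PRC2, apart from its enzymatic activity. ExE tissue at this age includes extra-embryonic ectoderm, the precursor of much of the placenta. The ectoderm is held in a stem-like state by factors such as CDX2, EOMES, ELF5 and ESRRB and by FGF signals from the neighbouring epiblast. In return it sends BMP4 to the epiblast.

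Because TET1 acts at CpG dinucleotides, promoter sequences are shown for the trapped gene and for 3 genes that the results turn on. Pccb had the smallest p among the genes that were lower in homozygous pools, Cdx2 is the defining trophoblast factor among them, and Zdbf2 is an imprinted gene that was higher. Each sequence is RefSeq's on GRCm38.p6, runs 5′ to 3′ on the gene's strand from 250 bases before to 50 bases after RefSeq's start nearest to the GENCODE gene start, and has every CG in capitals. They lie at chr10:62887275-62887574 (Tet1, minus strand), chr9:101034835-101035134 (Pccb, minus strand), chr5:147307200-147307499 (Cdx2, minus strand) and chr1:63273019-63273318 (Zdbf2, plus strand). The starts of Pccb, Cdx2 and Zdbf2 lie 14, 21 and 4 bases from the GENCODE gene start, but the Tet1 window belongs to a start 21672 bases inside the GENCODE gene.
Tet1: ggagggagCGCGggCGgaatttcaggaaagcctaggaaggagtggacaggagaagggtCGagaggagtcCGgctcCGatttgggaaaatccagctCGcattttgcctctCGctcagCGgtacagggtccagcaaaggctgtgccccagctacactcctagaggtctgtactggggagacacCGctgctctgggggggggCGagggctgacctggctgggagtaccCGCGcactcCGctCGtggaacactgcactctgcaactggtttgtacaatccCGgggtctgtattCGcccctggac
Pccb: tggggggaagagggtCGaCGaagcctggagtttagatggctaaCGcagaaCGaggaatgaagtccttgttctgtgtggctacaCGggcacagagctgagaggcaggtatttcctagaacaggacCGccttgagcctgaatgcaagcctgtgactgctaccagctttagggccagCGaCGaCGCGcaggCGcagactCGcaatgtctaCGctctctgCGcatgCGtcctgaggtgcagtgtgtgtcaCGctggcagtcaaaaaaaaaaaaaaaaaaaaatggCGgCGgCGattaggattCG
Cdx2: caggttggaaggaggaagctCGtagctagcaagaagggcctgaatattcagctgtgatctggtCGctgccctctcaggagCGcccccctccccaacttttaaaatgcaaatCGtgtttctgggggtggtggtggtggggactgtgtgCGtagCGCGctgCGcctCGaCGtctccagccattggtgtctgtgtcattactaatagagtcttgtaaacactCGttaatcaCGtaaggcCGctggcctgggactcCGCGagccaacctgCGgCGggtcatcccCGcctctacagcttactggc
Zdbf2: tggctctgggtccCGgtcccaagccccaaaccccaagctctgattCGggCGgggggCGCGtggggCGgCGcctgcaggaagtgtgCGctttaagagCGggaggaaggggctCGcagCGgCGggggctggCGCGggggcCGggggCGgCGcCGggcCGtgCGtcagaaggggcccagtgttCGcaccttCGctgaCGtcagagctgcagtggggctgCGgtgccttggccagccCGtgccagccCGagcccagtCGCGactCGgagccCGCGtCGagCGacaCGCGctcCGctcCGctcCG
The Tet1 window held 17 CG dinucleotides, that of Pccb 20, that of Cdx2 18 and that of Zdbf2 38. Among the 27025 RefSeq promoters of the same length, the median was 7 and 94.2% held at least 1 CG, which reads the same on both strands. At least as many as in the Tet1 window were found in 32% of those promoters, and the shares for Pccb, Cdx2 and Zdbf2 were 26.9%, 30.3% and 4.82%. These letters describe the windows and carry no measurement of methylation.

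Total counts were 4912215 to 7774149 in the homozygous libraries and 6810141 to 9494814 in the heterozygous ones. Homozygous pool 3 was the shallowest library and stood apart: regressed on transcript length and GC content together, its deviation from the ExE mean declined with length (slope -0.29 per log2 of length) and climbed with GC (0.61 per 10% of GC), whereas the other 10 ExE libraries had slopes of -0.07 to 0.14 and -0.29 to 0.22. Short and GC-rich transcripts thus read higher in that library, and results are given with and without it. Homozygous pools 1 and 4 leaned the other way on GC content, at -0.24 and -0.29, against -0.14 to 0.07 in the heterozygous pools. The tissue label was met by the markers of extra-embryonic ectoderm. Elf5 was at 168.1 to 239.1 CPM (counts scaled by each library's TMM-adjusted total) in all 7 libraries, with a median of 3.95 CPM in E. Ectoplacental cone and giant cell genes were also expressed, with a summed level of 2284 to 5573 CPM over 43 genes in the 7 libraries. Of these genes, 11 were at 0 in all homozygous pools, 11 in all heterozygous pools and 12 in all wt pools. Tpbpa and Prl2c2 were at 0 in all 3 genotypes. Of the leukocyte genes, Ptprc was at 0 in every ExE group. Lyz2 was above 0 in both trapped genotypes. Of these genotypes, Tyrobp and S100a8 were above 0 in the homozygous group only. Fcer1g, Nkg7, H2-Aa and S100a9 were above 0 in the heterozygous group only. The summed level of 26 blood and immune genes was 12.7 to 63.9 CPM in heterozygous and 24.9 to 65.4 CPM in homozygous pools.

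The trapped gene followed the labels. Tet1 lies at chr10:62804570-62908996 on the minus strand (GRCm38). Heterozygous pools 1, 2, 3 and 5 held 46.0, 51.0, 39.8 and 56.5 CPM of it, and homozygous pools 1, 3 and 4 held 21.6, 22.8 and 37.9 CPM. All 3 homozygous pools lay below all 4 heterozygous pools, although homozygous pool 4 came close to heterozygous pool 3. The homozygous mean was 27.4 ± 9.05 CPM (SD, n = 3) and the heterozygous mean 48.3 ± 7.10 CPM (SD, n = 4), so that homozygous pools held 56.7% of the heterozygous level. A two-sided exact permutation test on mean log2 CPM gave a difference of -0.85 with p = 0.0286, the smallest value that 35 splits of 3 against 4 allow. In wt ExE the level was 76.4 to 108.9 CPM, and edgeR's log2 fold changes against wt were -0.98 for heterozygous and -1.79 for homozygous ExE. Tet1 transcript remained at a measurable level in homozygous tissue. Counts cover the whole gene, so reads upstream and downstream of the trap cannot be told apart.

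**Figure D1:**
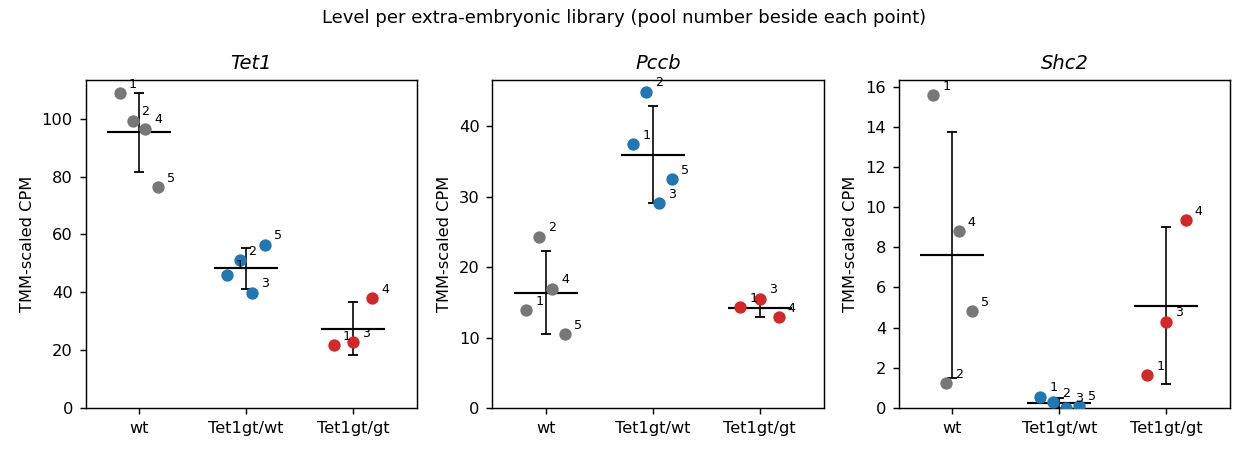
Levels of Tet1, Pccb and Shc2 in the 11 ExE libraries (y axis, TMM-scaled CPM from 0; x axis, genotype). Points are libraries with their pool number, lines are means and bars are SDs. Tet1 steps down from wt to Tet1gt/wt to Tet1gt/gt, Pccb is high in the 4 Tet1gt/wt pools, and Shc2 is near 0 in those 4 pools.

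The other genes of the methylation machinery did not pass the threshold. Tet3, the paralogue known from the zygote, was at 20.6 to 30.3 CPM in heterozygous and 29.3 to 39.6 CPM in homozygous pools (log2 fold change 0.55 ± 0.29, SE). Tet2, which lacks the CpG-binding CXXC domain of TET1, was low, at 9.17 to 14.8 CPM in heterozygous and 6.02 to 11.4 CPM in homozygous pools (-0.47 ± 0.43). The maintenance methyltransferase Dnmt1 differed by -0.25 ± 0.19, and the value without homozygous pool 3 was -0.06. Its partner Uhrf1 differed by 0.01 ± 0.15, at 354 ± 36.2 CPM in heterozygous pools (SD, n = 4) and 357 ± 13.9 CPM in homozygous pools (SD, n = 3). The de novo enzyme Dnmt3b, the most abundant of these genes by CPM, was at 1403 to 1683 CPM and 1435 to 1918 CPM (0.13 ± 0.19), and the cofactor Dnmt3l differed by -0.02 ± 0.25. Dnmt3a was the exception in size, at 38.6, 69.4, 35.3 and 62.1 CPM in heterozygous pools against 61.5, 156.8 and 145.0 CPM in homozygous pools 1, 3 and 4 (1.24 ± 0.49, unadjusted p = 0.0241, and 1.002 with unadjusted p = 0.0699 without pool 3). The Dnmt3a ranges overlapped at heterozygous pools 2 and 5 and homozygous pool 1. The gene was at 45.1 to 284.7 CPM in wt ExE and 597 to 872 CPM in E. None of these 7 genes had an adjusted p under 0.730 in edgeR.

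Across all genes, no transcript passed an adjusted p of 0.05 in edgeR's quasi-likelihood test with Benjamini-Hochberg adjustment (0 of 12355, 0% in either direction, lowest adjusted p = 0.730). At an unadjusted p under 0.05, 573 genes were higher in homozygous pools (4.64%) and 227 were lower (1.84%). DESeq2 called 8 genes (0.0648%), all higher, and limma-voom called 0. Without homozygous pool 3, edgeR called 0 of 12776 genes, 384 were higher at an unadjusted p under 0.05 (3.01%) and 468 lower (3.66%), and DESeq2 called 0. The surplus of genes on the higher side was therefore seen with pool 3 and not without it. Genes whose 3 homozygous libraries lay entirely above the 4 heterozygous ones numbered 392 (3.17%), and 387 (3.13%) lay entirely below. Taken at any size, 50.2% of genes were higher and 49.8% lower, and without pool 3 these shares were 50% and 49.9%. On counts simulated for 12002 genes from these libraries, the test called 22% of genes changed 2-fold and 83% of genes changed 4-fold. It made 111 calls, of which 6 were false. Low-level genes were left out of the changed set, and no length or GC bias was simulated. These shares therefore cover neither low-level genes nor a biased library.

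Among genes that were lower in homozygous pools, Pccb had the smallest p. The 12 genes of smallest p whose libraries did not overlap, and which also had p under 0.05 without pool 3, differed by -1.35 to -0.69 on the log2 scale. Pccb, a subunit of propionyl-CoA carboxylase, which breaks down odd-chain fatty acids and some amino acids, lies at chr9:100982032-101034898. It was at 37.5, 44.9, 29.1 and 32.5 CPM in heterozygous pools 1, 2, 3 and 5, and at 14.3, 15.5 and 12.9 CPM in homozygous pools 1, 3 and 4. The homozygous pools lay close together, well below the heterozygous range (-1.34 ± 0.32, unadjusted p = 0.000797, edgeR adjusted p = 0.730, and -1.41 without pool 3). In wt ExE Pccb was at 10.5 to 24.3 CPM, which put the heterozygous pools above both other genotypes (heterozygous against wt 1.13, homozygous against wt -0.21).

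Polg, the catalytic subunit of the mitochondrial DNA polymerase, was at 347, 454, 435 and 484 CPM in heterozygous pools against 307, 195 and 273 CPM in homozygous pools (-0.74 ± 0.21, and -0.58 without pool 3). Polrmt, the RNA polymerase of mitochondria, was at 94.99, 78.3, 74.7 and 110.2 CPM against 54.97, 60.02 and 46.6 CPM (-0.74 ± 0.21, and -0.83 without pool 3). For both genes every homozygous pool was below every heterozygous pool, which the rule of choice required. The wt pools lay at 345 to 545 CPM for Polg and 61.9 to 79.2 CPM for Polrmt. Pxn, the focal adhesion scaffold paxillin, was at 98.7, 88.1, 139.4 and 127.5 CPM against 46.1, 78.1 and 67.0 CPM (-0.83 ± 0.24, and -1.01 without pool 3). Bmp1, a protease that processes procollagens, was at 99.4, 109.2, 90.2 and 98.4 CPM against 49.5, 69.7 and 65.3 CPM (-0.69 ± 0.20, and -0.80 without pool 3). Both differences were at least as large without the biased library. Tbc1d1, a Rab GTPase-activating protein that regulates glucose transporter traffic, was at 85.3 to 129.9 CPM against 25.6 to 73.0 CPM (-1.07), with its lowest value in pool 3.

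The other members of this group were Cand2, an exchange factor of cullin ubiquitin ligases (-0.74), Pgpep1, a peptidase (-1.35), Shq1, an assembly factor of H/ACA ribonucleoproteins (-0.71), 3110002H16Rik (-0.74), 1700021K19Rik (-0.96) and Tet1 itself. Shq1 was at 48.4 to 60.2 CPM in the heterozygous pools and at 33.3, 32.7 and 33.7 CPM in the homozygous pools. The median transcript GC content of the 12 genes was 53.6%, against 49.9% over all tested genes, and homozygous pools 1 and 4 read GC-rich transcripts lower than the other ExE libraries. After correction of each library for GC content and length, the 12 differences ran from -1.38 to -0.65.

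Some genes were higher in all 3 homozygous pools to a like degree, and others were led by pool 3. Among the 12 chosen by the same rule, differences ran from 0.96 to 3.06. Dst, the cytoskeletal linker dystonin, was at 38.7, 42.0, 30.8 and 29.3 CPM in heterozygous pools against 52.3, 77.2 and 76.6 CPM in the homozygous ones (0.96 ± 0.23, unadjusted p = 0.000867, edgeR adjusted p = 0.730, and 0.87 without pool 3). Its wt range of 52.0 to 73.0 CPM overlapped that of the homozygous pools, and the heterozygous pools lay below both. Lsm5, a subunit of the ring that binds U6 small nuclear RNA, was at 34.4, 21.4, 31.5 and 26.5 CPM against 53.5, 64.3 and 56.2 CPM (1.03 ± 0.25, and 0.94 without pool 3). For Lsm5 it was the homozygous pools that stood apart, since wt pools lay at 23.8 to 40.9 CPM. Rai1, a nuclear regulator of transcription, was at 8.75 to 11.6 CPM against 22.9, 29.3 and 20.7 CPM (1.23, and 1.07 without pool 3). Ncs1, a neuronal calcium sensor, was at 7.27 to 11.7 CPM against 17.4, 42.4 and 27.4 CPM (1.58, and 1.21 without pool 3), with 21.3 to 62.5 CPM in wt. In E, Ncs1 was at 84.1 to 143.8 CPM and Rai1 at 23.3 to 73.0 CPM. Dst was at 64.5 to 164.3 CPM there and Lsm5 at 20.5 to 55.8 CPM. The part of epiblast RNA in these values was not tested.

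The largest differences of this group were carried by pool 3. Xaf1, an interferon-inducible factor that opposes inhibitors of apoptosis, was at 9.93, 5.54, 4.64 and 7.80 CPM in heterozygous pools against 10.5, 128.9 and 20.4 CPM in homozygous pools 1, 3 and 4. Its log2 fold change was 2.92 ± 0.66 (DESeq2 adjusted p = 0.0247) and was 1.14 without pool 3. In E, Xaf1 was at 92.2 CPM in heterozygous pool 4 and 154.9 CPM in homozygous pool 3, against 10.0 to 30.2 CPM in the other 10 E libraries. Those 2 E libraries also read short and GC-rich transcripts higher, with slopes of -0.28 and -0.22 per log2 of length and 0.5 and 0.58 per 10% of GC. Siglec1, a sialic-acid receptor of macrophages, was at 3.35 to 7.61 CPM in heterozygous pools and at 10.9, 82.4 and 16.9 CPM in homozygous pools (2.70, and 1.30 without pool 3). Zfp935, a zinc finger gene, was at 26.3 to 35.5 CPM against 40.1, 288.5 and 79.9 CPM (2.13, and 0.95 without pool 3). Slfn5 (2.69, and 1.46 without pool 3), Tapbpl, a peptide editor of antigen presentation (2.40, and 1.198), Dennd5b (1.66, and 0.98) and Gm5531 (3.06, and 2.01) were also highest in pool 3, far above the other homozygous pools. Gm10012 was at 111.2 to 187.4 CPM against 54.6 to 94.3 CPM (1.08). Gm5531 and Gm10012 are predicted genes whose reads may be shared with other copies. After correction of each library for GC content and length, the difference was 3.07 for Xaf1, 2.54 for Siglec1, 2.23 for Zfp935, 3.11 for Slfn5 and 3.29 for Gm5531, and the 12 differences ran from 0.72 to 3.29. The median transcript GC content of the 12 higher genes was 45.9%, below that of all tested genes.

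Shc2 and Qprt were near 0 or about 1 CPM in all 4 heterozygous pools. The genes called by DESeq2 included Siglec1, Zfp935, Xaf1, Slfn5, Gm5531, Shc2 and Qprt. The log2 fold changes of Shc2 and Qprt in edgeR were 4.35 and 3.49, and 4.45 and 3.19 without pool 3, although DESeq2 called none without that pool. Shc2, an adaptor of receptor tyrosine kinases at chr10:79618051-79637918, was at 0.55, 0.29, 0 and 0.11 CPM in heterozygous pools 1, 2, 3 and 5 and at 1.63, 4.30 and 9.34 CPM in homozygous pools 1, 3 and 4. It had 8 counts in all in the heterozygous pools and 106 in the homozygous pools, a ratio of 22.6 per total count (exact 95% interval 11.1 to 53.6, counting error only, DESeq2 adjusted p = 0.0328). Qprt, an enzyme of NAD synthesis, was at 0.11, 1.02, 1.13 and 0.42 CPM against 1.91, 10.5 and 10.5 CPM (ratio 11.3, interval 7.19 to 18.6, DESeq2 adjusted p = 0.0329). A single edgeR fit of all 23 libraries called 2 genes (0.0147%), Qprt among them (adjusted p = 0.0317). In Shc2 and Qprt the homozygous pools were all above the heterozygous pools, with pool 1 the lowest.

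Wt ExE held both genes at levels that overlapped those of the homozygous pools, with wt pool 2 low for each. Shc2 was at 15.6, 1.23, 8.81 and 4.83 CPM in wt pools 1, 2, 4 and 5 and Qprt at 10.2, 2.58, 6.26 and 3.62 CPM. In E levels were higher, at 12.5 to 38.0 CPM for Shc2 and 16.9 to 39.9 CPM for Qprt. Levels of epiblast markers are given beside these genes. The mean log2 CPM of 26 epiblast genes was 4.42, 4.19, 3.39 and 4.40 in heterozygous pools 1, 2, 3 and 5, 4.16, 5.63 and 5.52 in homozygous pools 1, 3 and 4, and 6.23, 3.70, 5.69 and 5.15 in wt pools 1, 2, 4 and 5. Among wt and among homozygous pools, wt pool 2 and homozygous pool 1 had the least of the markers and of both genes. Epiblast levels of wt pool 2 and homozygous pool 1 lay inside the heterozygous range, and their Shc2 and Qprt levels lay above it. Among the heterozygous pools, the markers and Shc2 were both highest in pool 1 and lowest in pool 3. Qprt was lowest in pool 1 and highest in pool 3. These heterozygous values rest on 8 counts of Shc2 and 22 of Qprt. The part of epiblast RNA in the values of Shc2 and Qprt was not tested.

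Epiblast genes were higher in homozygous than in heterozygous ExE, unevenly across pools. Of the 27 listed genes 26 were tested, 21 were higher and 5 lower, and the median log2 fold change was 1.46 (1.07 without pool 3), against 0.00 over all genes. At an unadjusted p under 0.05, 10 of the 26 were higher (4.64% of all genes) and 0 lower (1.84%), but without pool 3 it was 2 in each direction (3.01% and 3.66% of all genes), and 0 passed the adjusted threshold. Pou5f1, the pluripotency factor OCT4, was at 43.0, 38.2, 13.7 and 64.2 CPM in heterozygous pools against 36.9, 372 and 166 CPM in homozygous pools 1, 3 and 4 (2.27 ± 0.78). Pool 1 lay inside the heterozygous range, and the wt pools spanned 19.8 to 299 CPM. Sall2, a zinc finger factor, was at 2.38 to 9.38 CPM against 12.25, 30.5 and 19.19 CPM and was the list's single gene whose groups did not overlap, 1 of 26 against 3.17% of all genes (1.94 ± 0.60, and 1.54 with unadjusted p = 0.0252 without pool 3). Tdgf1, the Nodal co-receptor Cripto, was at 7.24 to 30.7 CPM against 23.9, 40.0 and 113.5 CPM (1.60, and 1.81 with unadjusted p = 0.00808 without pool 3), highest in pool 4. Sox4 (2.49) and the kinase gene Pim2 (1.60) were highest in pool 3. All genes named here come from the higher side of the list, whose log2 fold changes ran from -1.13 to 3.01. In bulk tissue a different share of epiblast cells and a different amount of RNA per cell cannot be told apart. The summed level of the 27 genes was 3287 to 3919 CPM in heterozygous, 3112, 5374 and 4350 CPM in homozygous and 3879 to 6769 CPM in wt ExE, and Enox1 was at 0 in both trapped genotypes.

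Genes of trophoblast stem cells and extra-embryonic ectoderm leaned lower in homozygous pools. All 29 listed genes were tested, 26 were lower and 3 higher, with a median of -0.32 (23 lower, 6 higher and -0.20 without pool 3). Of these, 2 were lower at an unadjusted p under 0.05 (1.84% of all genes), 3 without pool 3 (3.66% of all genes), and 0 passed the adjusted threshold. Cdx2, at chr5:147300805-147307270, the homeobox factor that specifies trophectoderm and maintains its stem cells, was at 175.8, 183.1, 151.4 and 158.0 CPM in heterozygous pools against 101.0, 141.1 and 112.0 CPM in homozygous pools 1, 3 and 4. No homozygous pool reached the lowest heterozygous pool (-0.50 ± 0.19, unadjusted p = 0.0214), and the difference was larger without pool 3 (-0.66, unadjusted p = 0.00207). The wt pools overlapped both, at 115.9 to 160.3 CPM. Duox2, a dual oxidase, was at 62.0, 74.8, 74.0 and 75.9 CPM against 22.2, 21.7 and 58.7 CPM (-1.06 ± 0.37, and -0.83 without pool 3), with 39.2 to 87.5 CPM in wt.

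The other core factors differed less. Eomes, the T-box factor of trophoblast, was at 428 to 508 CPM in heterozygous pools and at 302, 294 and 496 CPM in homozygous pools (-0.35 ± 0.20). Bmp4, the signal to the epiblast, was at 117.1 to 145.7 CPM against 83.1, 78.1 and 150.7 CPM (-0.39 ± 0.24). For both genes pools 1 and 3 were low and pool 4 lay inside or above the heterozygous range. Esrrb, a nuclear receptor of the stem state, differed by -0.32, and by -0.58 (unadjusted p = 0.0422) without pool 3. Zfp42, also known as Rex1, was at 112.2 to 152.1 CPM against 110.8, 41.5 and 102.4 CPM (-0.57). Elf5 went the other way, at 168.1 to 197.4 CPM against 195.0, 175.3 and 239.1 CPM (0.19 ± 0.22). Mean log2 CPM of the list was 6.85 to 6.997 in heterozygous, 6.56, 6.43 and 6.78 in homozygous and 6.62 to 7.05 in wt pools. Within these last 2 genotypes the list was lowest in homozygous pool 3 and wt pool 1, which had the highest epiblast level of their genotype. Homozygous pool 1 had a list level below every heterozygous pool and an epiblast level inside the heterozygous range. Among heterozygous pools the list was highest in pool 5, which had a high epiblast level for that genotype. The part of epiblast RNA in the level of this list was not tested.

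**Figure D2:**
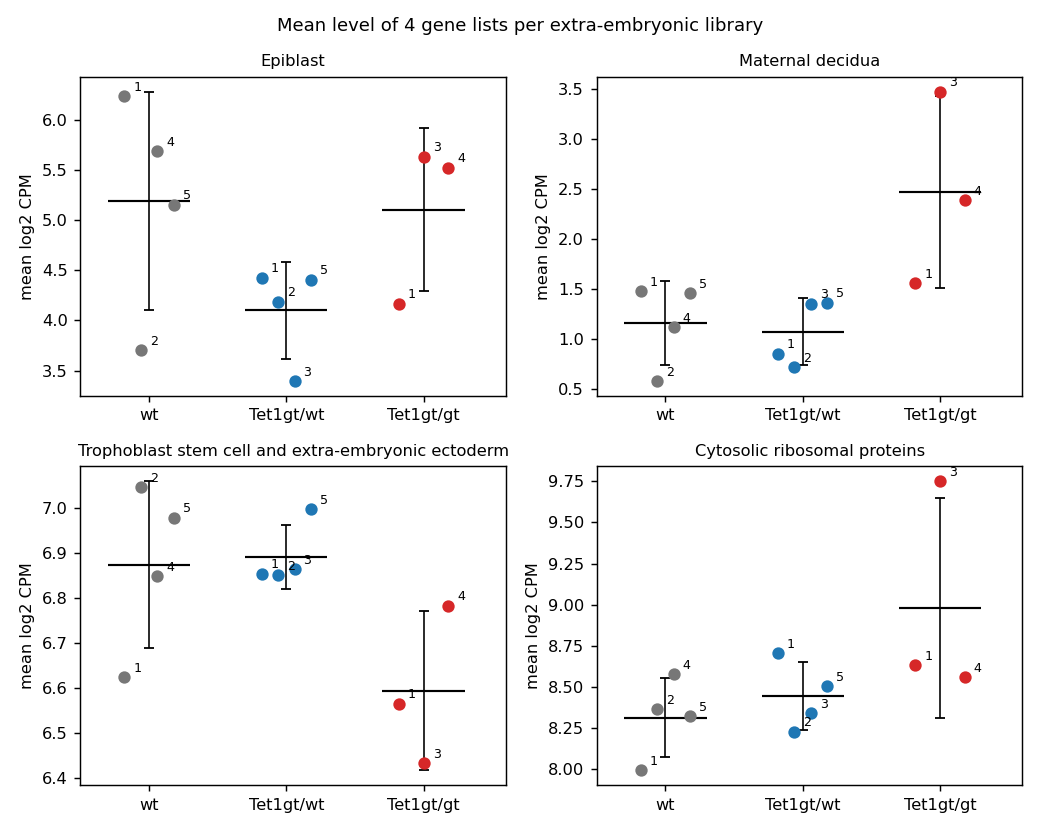
Mean log2 CPM (y axis) of 4 gene lists in the 11 ExE libraries by genotype (x axis); points are libraries with their pool number, lines are means and bars SDs. Cytosolic ribosomal proteins and maternal decidua are highest in Tet1gt/gt pool 3, and the trophoblast stem cell list is lower in all 3 Tet1gt/gt pools than in any Tet1gt/wt pool.

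Markers of other tissues that a dissection could carry along were also examined. Of 26 decidual genes 12 were tested, 10 were higher in homozygous pools and 2 lower, with a median of 1.73 (1.17 without pool 3). Prl8a2, a decidual prolactin-related hormone, was at 1.32, 0.15, 13.6 and 5.38 CPM in heterozygous pools against 13.3, 165.0 and 17.5 CPM in homozygous pools 1, 3 and 4 (3.65, and 1.58 with unadjusted p = 0.221 without pool 3). Prl3c1 was at 0, 0, 0.91 and 0.21 CPM against 1.91, 15.9 and 1.26 CPM, and the muscle filament gene Des was at 2.87 to 4.64 CPM against 1.36, 35.5 and 12.7 CPM. All 3 genes peaked in pool 3. The summed level of the 26 genes was 84.5 to 115.6 CPM in heterozygous, 103.6, 378 and 175.8 CPM in homozygous and 79.9 to 294 CPM in wt ExE, and Postn was at 0 in all 3 groups. Gja1, which is part of this sum, was also a gene of E, with a median of 452.5 CPM there. In ExE it was at 5.32 to 28.1 CPM in heterozygous and 12.3 to 199 CPM in wt pools. Homozygous pools 1, 3 and 4 held 15.4, 37.6 and 82.5 CPM of Gja1. Reads of prolactin family genes may be divided between near-identical copies. Visceral endoderm genes had a median of 0.31, which turned to -0.34 without pool 3 (12 of 20 higher, then 8 of 23), and Hnf4a was at 0 in all homozygous pools. Ectoplacental cone and giant cell genes had a median of 0.22 (17 of 24 higher), and primitive streak genes 0.44 (10 of 15 higher). The part of maternal, epiblast or endodermal RNA in the differences was not tested.

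Genes of ribosomes and oxidative phosphorylation were higher with pool 3 and close to 0 without it. All 80 cytosolic ribosomal protein genes were higher in homozygous pools, 47 of them at an unadjusted p under 0.05 (4.64% of all genes), with a median of 0.63. Without pool 3, 62 were higher, 1 reached that p on the higher side (3.01% of all genes), and the median was 0.11. Rpl37a was at 149.5 to 274.8 CPM in heterozygous pools and at 317, 1046 and 273 CPM in homozygous pools 1, 3 and 4. Rpl39 was at 113.3 to 170.8 CPM against 212, 517 and 186 CPM, and Rpl34 at 121.8 to 162.4 CPM against 195, 586 and 174 CPM. Pools 1 and 4 lay at or just above the heterozygous range for these genes, and pool 3 lay far above it. Of 78 nuclear genes of oxidative phosphorylation 70 were higher, 42 at an unadjusted p under 0.05, set against the same 4.64%, with a median of 0.66. Without pool 3 these values were 51, 2 (3.01% of all genes) and 0.07. Cox7c, a subunit of cytochrome oxidase, was at 82.4 to 113.1 CPM against 145.2, 288 and 133.4 CPM (0.94 ± 0.27, and 0.50 with unadjusted p = 0.0301 without pool 3), so that all 3 homozygous pools exceeded the heterozygous ones. The ATP synthase subunit genes Atp5l (1.37, and 0.42 without pool 3) and Atp5k (1.17, and 0.57) had the same order. With the GC and length correction, the medians were 0.35 for the ribosomal and 0.33 for the oxidative phosphorylation list. Ribosomal protein genes have many processed copies, so their single values are uncertain.

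**Figure D3:**
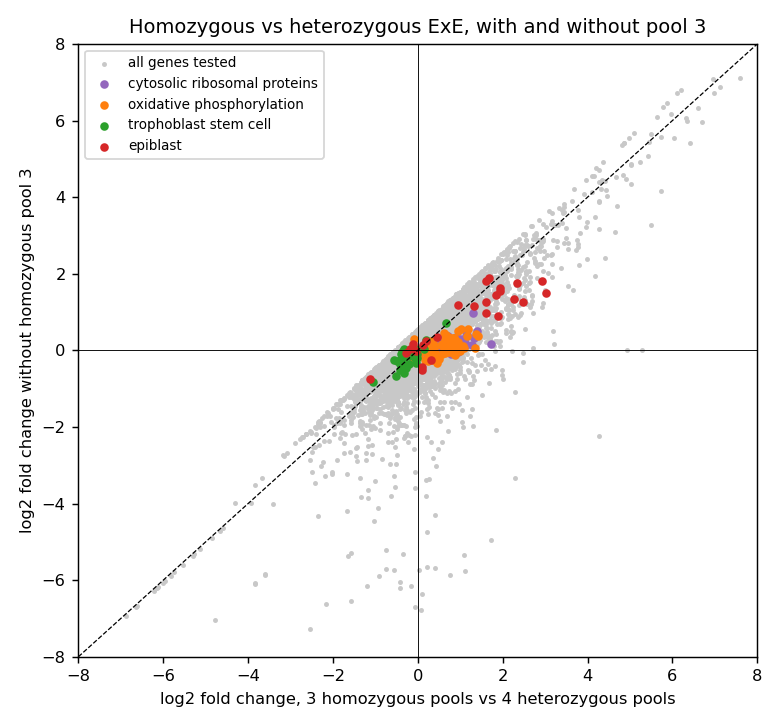
Log2 fold change of every gene tested in both fits with all 3 homozygous pools (x axis) and without homozygous pool 3 (y axis); the dashed line marks equal values. Ribosomal (purple) and oxidative phosphorylation genes (orange) lie near 0 on the y axis and to the right on the x axis, whereas epiblast genes (red) mostly lie above 0 on both and trophoblast stem cell genes (green) mostly lie below 0 on both.

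Imprinted genes held a few large differences, and the list leaned slightly higher in homozygous pools. Of 43 tested, 26 were higher and 17 lower, with a median of 0.27 (0.17 without pool 3). At an unadjusted p under 0.05, 4 were higher (4.64% of all genes) and 1 lower (1.84%). Without pool 3 it was 2 (3.01%) and 0 (3.66%). Mean log2 CPM of the list was 4.52 to 4.68 in heterozygous pools and 4.92, 4.70 and 4.80 in homozygous pools 1, 3 and 4. The wt pools overlapped both, at 4.66 to 4.86. Zdbf2, a paternally expressed gene, was at 0.77, 1.31, 0.68 and 0.53 CPM in heterozygous pools against 3.81, 6.45 and 16.5 CPM in homozygous pools 1, 3 and 4 (3.44 ± 0.96, unadjusted p = 0.00297, and 3.62 without pool 3). Summed counts were 27 against 189, a ratio of 11.9 per total count (exact 95% interval 7.94 to 18.6, counting error only, without the spread between pools). In wt it was at 18.5, 0.22, 10.6 and 4.83 CPM in pools 1, 2, 4 and 5, and in E at 11.1 to 58.2 CPM, so it had the pool order of Shc2 among the wt and among the homozygous pools. Nnat, neuronatin, was at 1.25 to 2.32 CPM against 2.72, 9.68 and 4.04 CPM (1.71, and 1.02 without pool 3). Grb10, an adaptor that restrains growth signals, was at 299 to 465 CPM against 297, 145 and 351 CPM (-0.64, and -0.36 with unadjusted p = 0.101 without pool 3).

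Many germline genes are silenced by promoter methylation in somatic tissue. Of 34 tested, a list that holds Tet1 itself, 22 were lower and 12 higher, with a median of -0.19 (-0.25 without pool 3). Asz1, a gene of the piRNA pathway, was at 1.43, 5.98, 6.45 and 9.28 CPM in heterozygous pools against 2.04, 0.43 and 1.52 CPM in homozygous pools (-2.08 ± 0.73, and -1.70 with unadjusted p = 0.0431 without pool 3), with overlap at heterozygous pool 1. Piwil2, a PIWI protein, was at 11.03 to 27.6 CPM against 3.13, 0.43 and 14.01 CPM (-1.61), and Stk31 was at 10.4 to 18.7 CPM against 6.94, 4.30 and 7.07 CPM (-1.12). The Stk31 groups did not overlap, whereas pool 4 reached the heterozygous range for Piwil2. Dppa5a was the large exception, at 17.0 to 17.6 CPM against 19.19, 199.4 and 29.0 CPM (2.25, and 0.47 with unadjusted p = 0.150 without pool 3). Among 13 tested Rhox genes, an X-linked homeobox cluster active in placenta and germ line, 9 were lower (median -0.25, and -0.38 without pool 3). Rhox4d was at 67.1 to 81.4 CPM against 54.0, 63.5 and 49.5 CPM (-0.43 ± 0.20, and -0.54 with unadjusted p = 0.0191 without pool 3), and Rhox4e was at 62.9 to 73.5 CPM against 47.8, 59.4 and 46.7 CPM (-0.38). The Rhox4 genes are near-identical copies, so their reads may be shared and they are not separate observations. Wt pools lay at 41.5 to 62.9 CPM for Rhox4d and overlapped the homozygous range.

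Signalling lists were centred near 0 and held single genes that differed. In the FGF and ERK list, 14 of 30 tested genes were higher and 16 lower (median -0.08). Dusp5, a phosphatase induced by ERK, was at 9.96 to 14.7 CPM in heterozygous pools against 5.17, 5.81 and 7.07 CPM in homozygous pools (-1.02 ± 0.35, unadjusted p = 0.0120, and -0.999 without pool 3). Its 2 groups did not overlap. In the BMP list 14 of 24 were higher (median 0.16), in the Nodal and TGF-beta list 9 of 24 (-0.18) and in the WNT list 20 of 37 (0.08). The WNT genes with the smallest p, Lef1 (2.52) and Fzd2 (2.26), were also genes of E, with medians of 132.6 and 107.8 CPM there. Lef1, a transcription factor of the pathway, was at 2.77 to 6.75 CPM against 8.57, 45.2 and 14.8 CPM in ExE.

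Lists for TET1's partners, repair and metabolism gave small medians. Of 23 tested genes of SIN3A, PRC2 and histone deacetylase complexes 17 were lower (median -0.10), and without pool 3 it was 11 (median 0.00). Hdac6, a cytoplasmic deacetylase, was at 228 to 322 CPM against 212, 226 and 220 CPM (-0.31 ± 0.18), with groups that did not overlap. Of 18 base excision repair genes 12 were lower (median -0.15). Tdg, the glycosylase that removes oxidised methylcytosine, was at 231 to 290 CPM against 220, 127.4 and 246 CPM (-0.41 ± 0.22, and -0.19 without pool 3), and Parp1 was at 438 to 452 CPM against 395, 269 and 412 CPM (-0.31). Of 28 cholesterol synthesis genes 17 were lower (median -0.09), among them Dhcr7, the last enzyme of the pathway, at 31.4 to 41.0 CPM against 27.6, 16.4 and 18.2 CPM (-0.81 ± 0.30). Of 24 glycolysis genes 16 were lower (median -0.08, and 19 lower with -0.18 without pool 3). Slc2a1, the main glucose transporter of this list by CPM, was at 1072 to 1536 CPM against 1267, 865 and 1007 CPM (-0.37). Hypoxia genes had a median of -0.19, proteasome genes 0.04, basement membrane genes -0.20, G1 and S phase genes -0.05, and G2 and M phase genes -0.13. Interferon genes had a median of 0.43, and 0.08 without pool 3, immediate early genes -0.17, p53 targets 0.27, and 7 blood and immune genes -0.18. In none of the lists did a gene pass the adjusted threshold in edgeR.

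**Figure D4:**
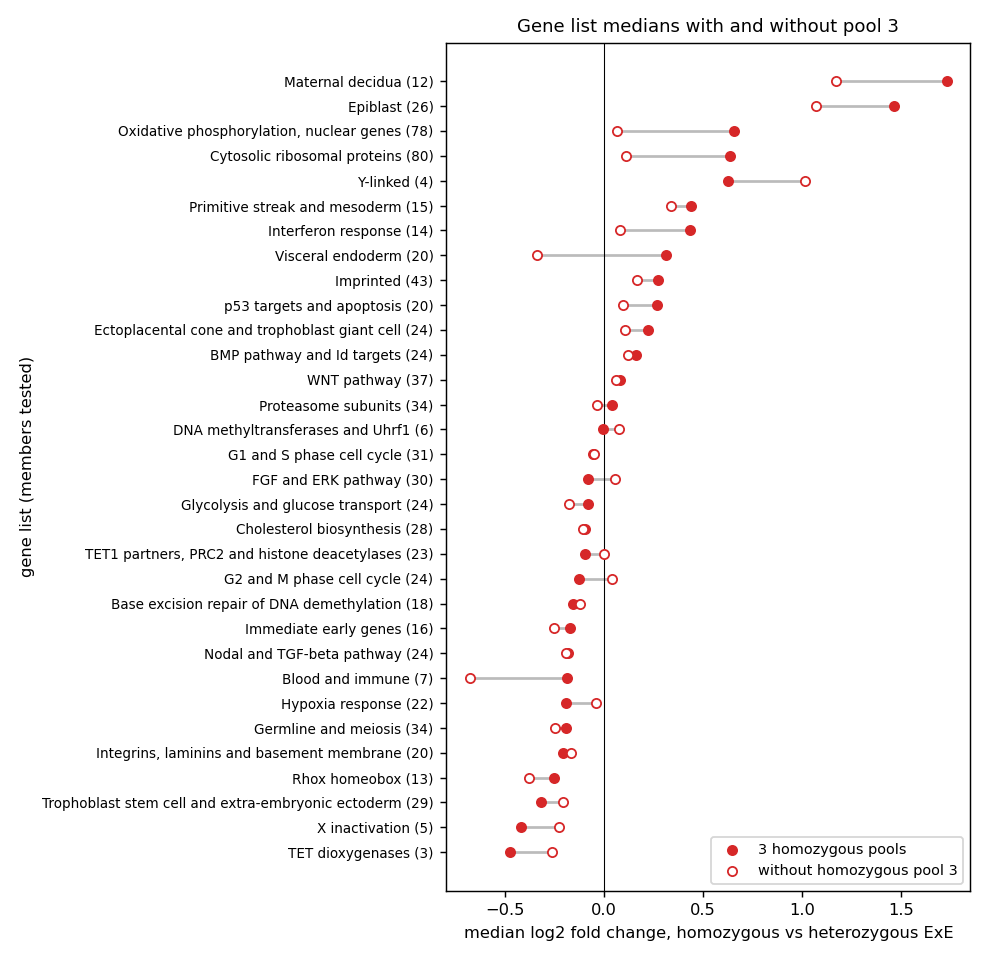
Median log2 fold change, homozygous against heterozygous ExE (x axis), of each of the 32 gene lists (y axis, with the number of members tested), with all 3 homozygous pools (filled) and without homozygous pool 3 (open). The ribosomal, oxidative phosphorylation and interferon lists move close to 0 when pool 3 is left out, visceral endoderm changes side, and the epiblast and decidua lists stay above 1.

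Pools also differed in sex-linked transcripts. Averaged over 4 Y-linked genes, log2 CPM was 2.21, 3.81, 2.53 and 2.37 in heterozygous pools 1, 2, 3 and 5 and 3.84, 2.04 and 3.69 in homozygous pools 1, 3 and 4. The median of the log2 fold changes of these 4 genes was 0.63 (1.01 without pool 3). Xist, expressed from the inactive X, was at 33.5, 14.3, 56.2 and 27.5 CPM against 40.3, 78.9 and 72.8 CPM (0.96, unadjusted p = 0.0617). The groups overlapped for both. The part of the embryos' sex in the differences, of the X-linked Rhox cluster among others, was not tested.

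The homozygous against heterozygous difference was compared between ExE and E by an interaction term in a fit of all 23 libraries. Of 13595 genes, 0 (0%) passed the adjusted threshold in edgeR, 624 (4.59%) had an unadjusted p under 0.05, and limma-voom called 0. Without the 3 libraries with a length and GC bias, 0 of 13961 passed and the unadjusted share was 5.66%. For Tet1 the difference was -0.61 in E, and the interaction was -0.17 ± 0.37 (unadjusted p = 0.648), so a difference between tissues in the size of the Tet1 step was not detected. Shc2 had the interaction 4.06 ± 1.02 (unadjusted p = 0.000596, edgeR adjusted p = 0.937), with a difference of 0.33 in E. Pccb was at 1.15 to 14.4 CPM in E, and its interaction was -1.87 ± 0.68 (unadjusted p = 0.0122, adjusted p = 0.976). Cdx2, at 0.33 to 33.8 CPM in E, had an interaction of -0.66 ± 1.24.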

How the data were processed

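RNA was measured in 23 pooled libraries, of which the 11 ExE libraries were fitted here. Per the labels' protocols, 1 to 10 ng of polyA RNA per pool, with an integrity number above 8.0, went through SMARTer Ultra Low Input (version 3) amplification before sequencing (NextSeq 500, single-end, 75 bp). The submitters' processing notes and the design text name cutadapt 1.7.1, FastX 0.0.13 and ShortRead 1.16.3 for trimming and filtering, and TopHat2 2.0.12 with mm10 (GRCm38). No source used here gives the counting program, its annotation or strand setting, so overlapping and antisense genes cannot be told apart. The deposited table of the authors holds raw counts, which are whole and unscaled.

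Of 23723 distinct symbols, 23363 (98.5%) were matched to GENCODE M21 (GRCm38). Counts were filtered with filterByExpr (minimum count 10, minimum total 15), scaled by TMM and tested with edgeR 4.0.16 (glmQLFit and glmQLFTest, two-sided, R 4.3.3). The 3 ExE genotypes shared a fit, and p-values were adjusted over all genes by Benjamini-Hochberg. Log2 fold changes use a prior count of 0.125 with SE, and log2 CPM levels a prior count of 2. Alternatives used DESeq2 1.42.0, limma 3.58.1 (voom), other scaling, filters and library sets, a GC and length correction and a replicate block. DESeq2 and the GC and length correction without homozygous pool 3 were added after the data were seen. The test was checked on simulated counts. A count of 0 allows up to 3 counts, or 0.316 to 0.611 CPM, which covers counting error only because PCR copies were not marked by molecular identifiers.

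The comparison, the 32 gene lists and the rules were chosen with earlier results of these data known. Named genes are Tet1 to Tet3, Dnmt1, Dnmt3a, Dnmt3b, Dnmt3l and Uhrf1, up to 12 genes in each direction (smallest p, mean log2 CPM of at least 1, no overlap between groups, and an unadjusted p under 0.05 in the same direction without homozygous pool 3), up to 3 members of each list by p with and without that pool, and the genes called by DESeq2. A few genes that these rules name are not reported here. Elf5, Eomes, Bmp4 and Esrrb are named as markers of the tissue.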

Additional observations from a re-analysis of the deposited data

Results flagged for a closer look

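In the 4 heterozygous ExE pools, 2 list levels and 3 named genes had a single pool far from the other pools. The mean log2 CPM of the trophoblast stem cell and extra-embryonic ectoderm genes was 6.997 in pool 5, against 6.85 to 6.86 in pools 1, 2 and 3, a gap of 0.909 of the group's range. The mean log2 CPM of the G1 and S phase genes was 6.161 in pool 2, with a gap of 0.839 of the range. Duox2 was at 62.0 CPM in pool 1, below the 74.0 to 75.9 CPM of the other heterozygous pools. Lef1 was at 6.745 CPM in pool 5, against 2.77 to 3.20 CPM in the other heterozygous pools. Fzd2 was at 6.853 CPM in pool 2, against 2.53 to 3.20 CPM in the other heterozygous pools. Of 104 groups of 4 libraries tested in this way 5 stood out, and chance gives about 1 in 20.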

How the results depend on the processing

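The count of genes called stayed at 0 in edgeR with other size factors, without the filter, with only the 7 libraries compared, with the GC and length correction (also without homozygous pool 3), with limma-voom and with each library left out in turn (0 to 0). DESeq2 called 8 genes, and a fit of all 23 libraries called 2. Leaving out 1 library gave 534 to 1411 genes at an unadjusted p under 0.05, with 1411 without homozygous pool 1 and 1240 without homozygous pool 4. The Tet1 difference in log2 level ranged from -1.10 to -0.701 with 1 library left out, with exact permutation p of 0.0667 or 0.1, the smallest those designs allow. The GC and length correction changed the split at an unadjusted p under 0.05 to 495 higher and 474 lower.

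The labels do not tie pools of different genotype together by number, and same-numbered homozygous and heterozygous pools correlated at -0.04 and -0.04. With the replicate block on the pool number, 0 genes were called (212 at an unadjusted p under 0.05), and 0 with the block and the GC and length correction together (378). Among E and ExE material, the block on the pool left the interaction at 0 genes (729).

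Of 1344 values of 72 named genes under the alternatives, 1323 kept their direction and side of the threshold, 8 passed it in addition and 13 changed sign. The Dnmt3l log2 fold change was 0.0235 with other size factors, 0.0198 with all 23 libraries and 0.0232 with DESeq2, and ranged from -0.2815 to 0.1364 with 1 library left out. The Uhrf1 log2 fold change was -0.0301 with the replicate block and ranged from -0.0319 to 0.0717 with 1 library left out. The Dnmt3b log2 fold change ranged from -0.000495 to 0.217 with 1 library left out. These genes lie near 0, and the cause was not tested. Depth limits genes below about 1 CPM, such as Shc2 in heterozygous pools.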
